A study of Mus musculus with 9 samples.

Results

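The interferon signalling and response genes are the receptors for type I and type II interferon, the kinases and transcription factors that act below them, and the genes these factors switch on. They were taken as a list of 42 genes and read through the probe sets that the platform annotation gives to them. Of these 42 genes, 30 had a probe set of their own bright enough to be tested, among 5855 such genes on the whole array. RNA was measured in whole skin of mice of the C57BL/6 background that had received no UVB. The knockout group held 5 mice lacking Cd1d (Cd1d-/-), the lipid-presenting molecule that natural killer T cells recognise, and the wild-type group held 4 C57BL/6 mice (Cd1d+/+). The labels describe the mice as matched for age and sex without giving either, and each mouse had its own Affymetrix MG-U74 array. Signals are MAS5 units, an arbitrary scale on which different probe sets cannot be set against each other.

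Interferons alpha and beta bind the receptor pair Ifnar1 and Ifnar2, whose kinases Jak1 and Tyk2 activate STAT proteins. With Irf9 these form a complex that binds the interferon-stimulated response element, abbreviated ISRE. Interferon gamma binds Ifngr1 and Ifngr2, acts through Jak1 and Jak2, and leads to STAT dimers that bind gamma-activated sites, abbreviated GAS. The genes that are switched on block viral replication or, like the interferon-inducible GTPases, attack the vacuoles of intracellular microbes, and in skin keratinocytes, fibroblasts and leukocytes can all express them.

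Both elements are known from promoters of induced genes, close to the start site. The windows of 8 members with a match, whose values are described below, are shown to place the elements. Each sequence runs 5′ to 3′ on the strand of its gene over 300 bases, 250 before the RefSeq transcript start and 50 after it, in GRCm38.p6. Capitals mark every match to the ISRE core, which is GAAA, any 2 bases and GAAA again, or to the GAS motif TTCNNNGAA, both searched on both strands. Matches on the opposite strand read as TTTC repeats, and a match describes letters and not a bound site.
Igtp, chr11:58199306-58199605, plus strand: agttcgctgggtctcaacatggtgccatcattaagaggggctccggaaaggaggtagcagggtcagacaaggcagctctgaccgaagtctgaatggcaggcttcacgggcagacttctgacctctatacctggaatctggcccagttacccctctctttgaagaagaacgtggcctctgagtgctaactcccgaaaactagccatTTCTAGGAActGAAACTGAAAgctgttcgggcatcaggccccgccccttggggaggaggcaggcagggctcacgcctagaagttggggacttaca
Tgtp1, chr11:48992197-48992496, minus strand: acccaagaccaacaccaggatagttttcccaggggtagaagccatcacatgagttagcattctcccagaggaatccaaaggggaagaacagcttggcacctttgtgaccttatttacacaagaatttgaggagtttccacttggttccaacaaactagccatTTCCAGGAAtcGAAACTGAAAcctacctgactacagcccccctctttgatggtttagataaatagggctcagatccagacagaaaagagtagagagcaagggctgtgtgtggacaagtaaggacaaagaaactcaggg
Gbp2, chr3:142620413-142620712, plus strand: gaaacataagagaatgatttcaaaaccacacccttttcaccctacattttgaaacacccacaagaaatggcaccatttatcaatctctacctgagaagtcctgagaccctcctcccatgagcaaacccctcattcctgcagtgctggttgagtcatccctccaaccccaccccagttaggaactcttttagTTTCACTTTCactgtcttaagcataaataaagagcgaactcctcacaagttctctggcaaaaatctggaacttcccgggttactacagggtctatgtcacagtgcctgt
Ifit1, chr19:34640639-34640938, plus strand: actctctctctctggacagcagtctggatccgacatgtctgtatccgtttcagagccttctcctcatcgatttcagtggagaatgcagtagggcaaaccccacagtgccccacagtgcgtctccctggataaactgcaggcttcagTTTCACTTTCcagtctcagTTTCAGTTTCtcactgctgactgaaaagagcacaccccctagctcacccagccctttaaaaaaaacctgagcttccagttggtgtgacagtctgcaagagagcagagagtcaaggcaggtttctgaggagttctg
Ifit3, chr19:34583279-34583578, plus strand: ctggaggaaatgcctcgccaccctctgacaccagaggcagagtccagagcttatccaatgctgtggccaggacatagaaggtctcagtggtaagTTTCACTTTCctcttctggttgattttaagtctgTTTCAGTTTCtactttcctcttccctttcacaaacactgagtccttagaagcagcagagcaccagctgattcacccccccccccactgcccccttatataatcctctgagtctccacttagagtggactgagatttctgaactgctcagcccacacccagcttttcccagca
Isg15, chr4:156200769-156201068, minus strand: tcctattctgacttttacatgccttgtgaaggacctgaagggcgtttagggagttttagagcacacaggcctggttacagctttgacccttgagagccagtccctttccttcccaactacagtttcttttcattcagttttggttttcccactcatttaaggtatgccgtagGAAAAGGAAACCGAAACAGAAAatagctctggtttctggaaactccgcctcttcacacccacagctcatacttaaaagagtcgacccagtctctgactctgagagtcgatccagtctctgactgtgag
Irf1, chr11:53769764-53770063, plus strand: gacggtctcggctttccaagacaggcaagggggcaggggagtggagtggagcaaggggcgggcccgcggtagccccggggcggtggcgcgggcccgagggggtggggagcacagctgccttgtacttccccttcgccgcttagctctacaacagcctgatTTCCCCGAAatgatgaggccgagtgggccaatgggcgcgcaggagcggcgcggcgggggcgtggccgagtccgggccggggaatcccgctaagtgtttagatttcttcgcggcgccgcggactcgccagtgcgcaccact
Irf8, chr8:120736108-120736407, plus strand: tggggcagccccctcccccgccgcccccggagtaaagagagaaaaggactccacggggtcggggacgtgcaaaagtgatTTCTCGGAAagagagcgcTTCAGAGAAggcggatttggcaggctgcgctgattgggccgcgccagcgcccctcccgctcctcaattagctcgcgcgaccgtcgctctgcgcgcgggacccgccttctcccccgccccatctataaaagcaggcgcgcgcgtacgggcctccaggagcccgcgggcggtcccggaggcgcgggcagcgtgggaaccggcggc

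In Igtp a GAS begins 45 bases before the start and an ISRE core begins 34 bases before it, and Tgtp1 has the same pair at 88 and 77 bases. Both pairs have the GAS first and a distance of 11 bases between the first letters. The joint pattern, a GAS followed after 2 free bases by an ISRE core, was searched after this pair had been seen. It occurred in 5 of 27025 genes with a window (0.0185%), namely Igtp, Tgtp1, Tgtp2, Irgm2 and Gm12185. Gbp2 has 1 ISRE core, 59 bases before its start. Ifit1 has ISRE cores at 104 and 85 bases, Ifit3 at 156 and 122 bases, and Isg15 has 3 overlapping cores at 78, 72 and 66 bases. Irf1 has a GAS at 90 bases and Irf8 has GAS matches at 171 and 153 bases, and neither window holds an ISRE core. Not every effector window holds a match: those of the GTPase Ifi47 and of Ifi44, Oasl2 and Xaf1 hold neither motif.

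Windows were found for 37 of the 42 members. An ISRE core stood in the windows of 16 of these 37 genes (43.2%), compared with 1079 of 27025 genes overall (3.99%). Among members it was found in 13 of 21 effectors (61.9%), in 5 of 6 GTPases and in 2 of 15 signalling genes (13.3%), with 0 of 4 receptors. GAS matches stood in 14 of 37 members (37.8%), compared with 9.55% of all genes, in 9 of 21 effectors (42.9%) and in 5 of 15 signalling genes (33.3%). A comparison pattern with 4 free bases between TTC and GAA stood in 7 of 37 members (18.9%), compared with 8.01% of all genes. ISRE letters were thus found mainly at effectors, while GAS letters were found in both classes.

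The array called few differences between the genotypes. At an adjusted p of 0.05 in limma, 4 of 7658 tested probe sets passed (0.0522%). The targeted gene, Cd1d1, had signals of 58.2, 65, 79.6, 47.6 and 51.1 in knockout 1 to 5, against 112.4, 101.1, 91 and 130 in wild type 1 to 4. The groups did not overlap, and the log2 difference of -0.86 put the knockout signal at 55.1% of the wild-type signal. Knockout 4 and knockout 5 lay within the span of brightness filter levels (43.4 to 53.3, depending on the array). MAS5 signals this low have a large relative error, so this share does not measure how much Cd1d1 RNA remained. An exact two-sided permutation test of this gene alone gave p = 0.0159, while its adjusted p in limma was 0.242, so Cd1d1 was not among the 4 probe sets that passed. Of 8 skin identity markers, 6 passed the brightness filter, among them the keratins Krt1 and Krt10, the cornified envelope gene Lor and the collagens Col1a1 and Col3a1. The keratins Krt5 and Krt14, also on this list and on the array, did not pass it. The 9 arrays correlated with each other between 0.892 and 0.968.

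No interferon gene passed in limma at an adjusted p of 0.05: 0 of 30 members did, and the smallest adjusted p was 0.463, for Irf8. At an unadjusted p of 0.05 the count was 1 of 30, compared with 720 of 7658 probe sets (9.4%). No member had groups that did not overlap, and few probe sets did, 246 of 7658 (3.21%). At so low a share, 0 of 30 does not set the members apart. The same holds for the adjusted p, which 0.0522% of probe sets passed. Values were lower in knockout skin for 19 members and higher for 11, with a median log2 difference of -0.15, and 3735 of 7658 probe sets were lower (48.8%), with a median of 0.0071. In whole skin, fewer cells of a type and less RNA per cell cannot be told apart.

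Signalling genes lay on both sides of 0 and effectors mostly below it. Of 13 signalling genes, 6 were lower and 7 higher in knockout skin, with a median log2 difference of 0.07 and a range of -0.41 to 0.32. Of 15 effectors, 12 were lower and 3 higher, with a median of -0.17 and a range of -0.82 to 0.23. This contrast depended on the brightness filter. With a stricter filter, at the 60th percentile, 5 of 8 signalling genes were lower (median -0.16) and 5 of 7 effectors (median -0.15). These are descriptions of the 2 lists and the difference between them was not tested. The 95% interval of the difference lay within a 2-fold change either way for 13 of 13 signalling genes and 12 of 15 effectors, compared with 6706 of 7658 probe sets. The exceptions were Ifit1, Isg20 and Rsad2, whose low signals vary most between mice. Within a 1.5-fold change the interval lay for 14 of 30 members, compared with 3990 of 7658 probe sets.

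**Figure D1:**
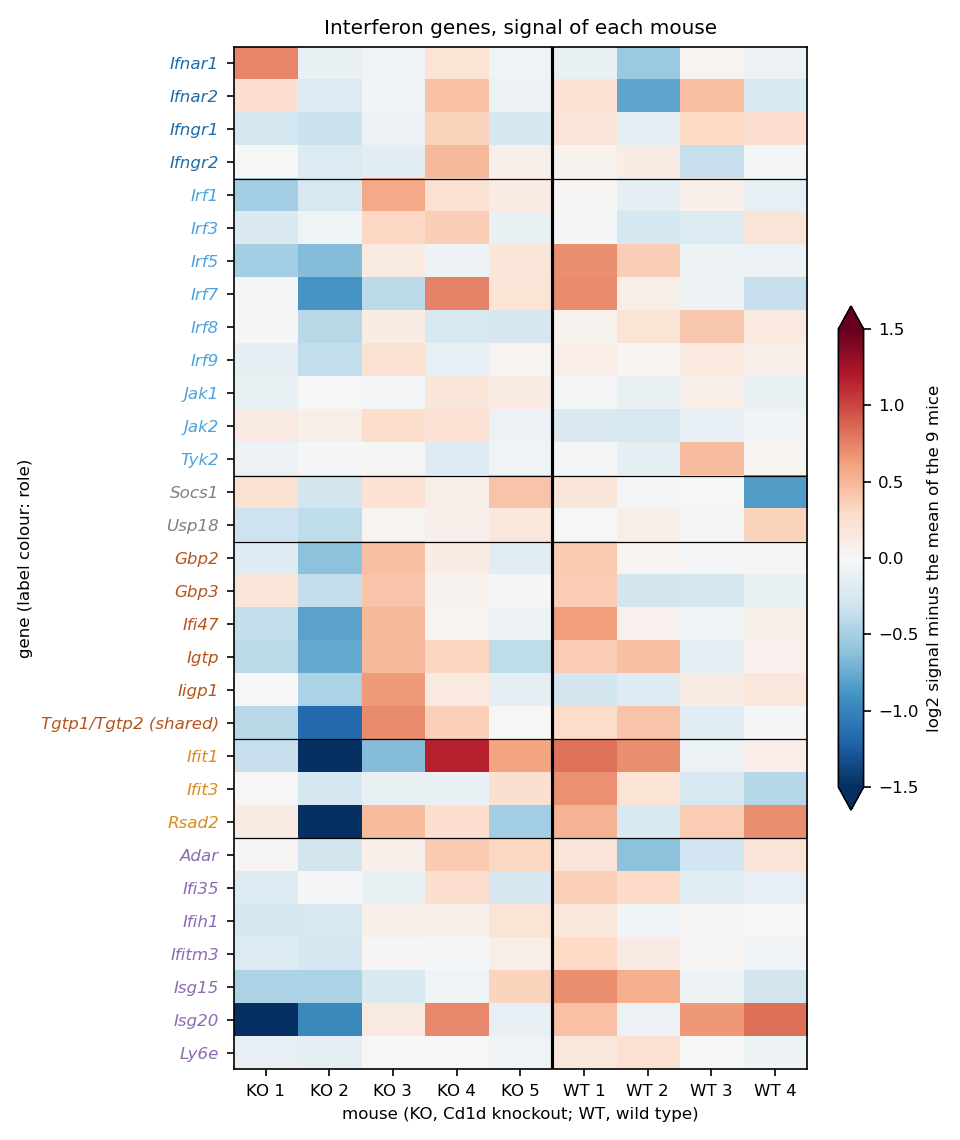
Signal of each mouse (columns, 5 knockout then 4 wild-type mice) for each tested interferon gene (down the page, label colour by role), as log2 signal minus the mean of the 9 mice, with values past 1.5 either way at the end colour. Knockout 2 is blue through most of the GTPase and antiviral genes and knockout 3 is red through the GTPases, so the 2 genotypes do not form blocks of colour.

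The receptors were measured by 4 genes. Ifnar1, the first chain of the type I interferon receptor, had signals of 175.1, 97.7, 101.5, 122.1 and 101.7 in knockout 1 to 5, against 97.7, 71.6, 108.7 and 99.6 in wild type 1 to 4. Knockout 1 stood above every other mouse and the remaining values overlapped. Its log2 difference was 0.32 (95% interval -0.12 to 0.77, limma adjusted p = 0.659), and it was 0.175 without knockout 1. Ifngr1, the ligand-binding chain of the interferon gamma receptor, had 155.9, 150.3, 175.8, 237.1 and 156.1 in knockout mice, against 214.7, 168.5, 230.1 and 222.3 in wild-type mice. Knockout 4 was the highest of all 9 mice, while 3 other knockout mice lay below every wild-type mouse. The log2 difference of Ifngr1 was -0.27 (-0.63 to 0.09, limma adjusted p = 0.651).

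Ifnar2, the second chain of the type I receptor, had signals of 67.9, 49.7, 55.6, 77.7 and 54 in knockout 1 to 5, against 66.3, 33, 78.5 and 48.8 in wild type 1 to 4. The wild-type mice held both the lowest and the highest value. Its log2 difference was 0.16 (-0.44 to 0.76, limma adjusted p = 0.885), and it was -0.074 without wild type 2. Ifngr2, the second chain of the gamma receptor, averaged 159 ± 32.8 in knockout skin (SD, n = 5) and 148 ± 20 in wild-type skin (SD, n = 4), and its log2 difference was 0.09. The receptor genes thus had 1 value lower and 3 higher, all within the spread between mice.

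Among the kinases, Jak2, which serves the gamma receptor, had signals of 105.2, 101.7, 115.4, 111.4 and 90.7 in knockout 1 to 5, against 83, 81.6, 88.2 and 93.6 in wild type 1 to 4. Knockout 5 alone lay among the wild-type values. The log2 difference was 0.27 (-0.03 to 0.58, limma unadjusted p = 0.0753, adjusted p = 0.576). Jak1, shared by both receptor types, had 432.3, 469.1, 458.1, 532.1 and 508.5 in knockout mice, against 459.5, 434.3, 497.9 and 433 in wild-type mice. Knockout 4 and knockout 5 were the highest and the other values overlapped, with a log2 difference of 0.07 (-0.17 to 0.32). Tyk2, which serves the type I receptor, averaged 159 ± 8.89 in knockout skin and 179 ± 34.5 in wild-type skin, and wild type 3 was the highest mouse at 228.8. Its log2 difference was -0.15.

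The interferon regulatory factors, abbreviated IRF, gave the member with the smallest p. Irf8, a factor that macrophages and dendritic cells need for their development, had signals of 164.2, 124.4, 178.9, 140.4 and 139.6 in knockout 1 to 5, against 172, 192.3, 220.7 and 184.6 in wild type 1 to 4. Knockout 3 alone lay inside the wild-type values, above wild type 1. For Irf8 the log2 difference was -0.37 (-0.69 to -0.05, limma unadjusted p = 0.0253, adjusted p = 0.463), and 303 of 7658 probe sets were lower at that unadjusted threshold (3.96%).

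Markers of macrophages and dendritic cells were also lower in value. Of 25 genes on the marker list 23 were on the array and 19 were tested. All 19 had lower values in knockout skin, with a median log2 difference of -0.29, where 48.8% of all tested probe sets were lower. The list was chosen with earlier results of these data known. The 19 genes mark related cell types and are not independent observations. Their summed signal was 18152 to 23048 in knockout mice and 23096 to 27693 in wild-type mice, so the ranges nearly met. The largest part of each sum was Cd74, at 5279.7 to 8161.8 in knockout mice and 7361.9 to 9094.3 in wild-type mice. Ctss, a protease of antigen-presenting cells, had the smallest limma p of the list, and knockout mice averaged 1333 ± 220 and wild-type mice 1901 ± 225. Tyrobp had the smallest difference of the list, with 633.5 ± 75.7 in knockout mice and 659.5 ± 93.9 in wild-type mice. The defining markers Csf1r, Adgre1 and Itgax were above the filter in both groups. Their part in the Irf8 value was not tested.

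Irf5, which acts below Toll-like receptors in macrophages, had signals of 176.5, 159.7, 275.7, 239.5 and 286.1 in knockout 1 to 5, against 408.6, 326, 238.9 and 237.6 in wild type 1 to 4. Wild type 1 and wild type 2 were above all knockout mice, and the other 2 wild-type mice lay among them. For Irf5 the log2 difference was -0.41 (-0.90 to 0.07, limma adjusted p = 0.591), and it was -0.256 without wild type 1. Irf7, which amplifies the type I response, had 108.8, 60.5, 84.6, 186.7 and 128.4 in knockout mice, against 181.7, 118.1, 105.4 and 87.4 in wild-type mice. Knockout 4 and wild type 1 stood highest, knockout 2 lowest, and the groups overlapped. Its second probe set averaged 83.7 ± 21.5 in knockout skin and 98.2 ± 31 in wild-type skin. The 2 probe sets gave log2 differences of -0.16 and -0.22, with knockout 2 the lowest mouse on both.

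Irf9, the DNA-binding partner in the ISRE complex, had 250.4, 213.5, 321.8, 252.7 and 282.8 in knockout mice, against 294.7, 281.6, 304.9 and 291.3 in wild-type mice. The wild-type values lay close together and the knockout values spread around them on both sides, with a log2 difference of -0.16. Irf1, a factor induced by interferon gamma whose GAS is shown above, had 164.4, 197, 346.1, 273.2 and 254.9 in knockout mice, against 235.4, 211.6, 245.1 and 214.8 in wild-type mice. Here too the knockout values lay on both sides of all wild-type values, with knockout 3 the highest, and the log2 difference was 0.08. Irf3, the factor that switches on Ifnb1, averaged 139.3 ± 26 in knockout skin and 126.3 ± 18.3 in wild-type skin.

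The feedback inhibitors lay on opposite sides of 0. Socs1, which blocks JAK kinases, had signals of 140.4, 99.5, 139.6, 127.6 and 160.9 in knockout 1 to 5, against 136, 118.1, 119.7 and 67.2 in wild type 1 to 4. Wild type 4 stood below all others, and the log2 difference was 0.31 (-0.17 to 0.79, limma adjusted p = 0.702), or 0.086 without wild type 4. Usp18, which removes Isg15 from proteins and damps the type I receptor, had 71.9, 68.1, 91.9, 94.1 and 100.2 in knockout mice, against 88.7, 94.9, 87.5 and 112 in wild-type mice. Knockout 1 and knockout 2 were the lowest and the others overlapped, with a log2 difference of -0.18 (-0.56 to 0.20).

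**Figure D2:**
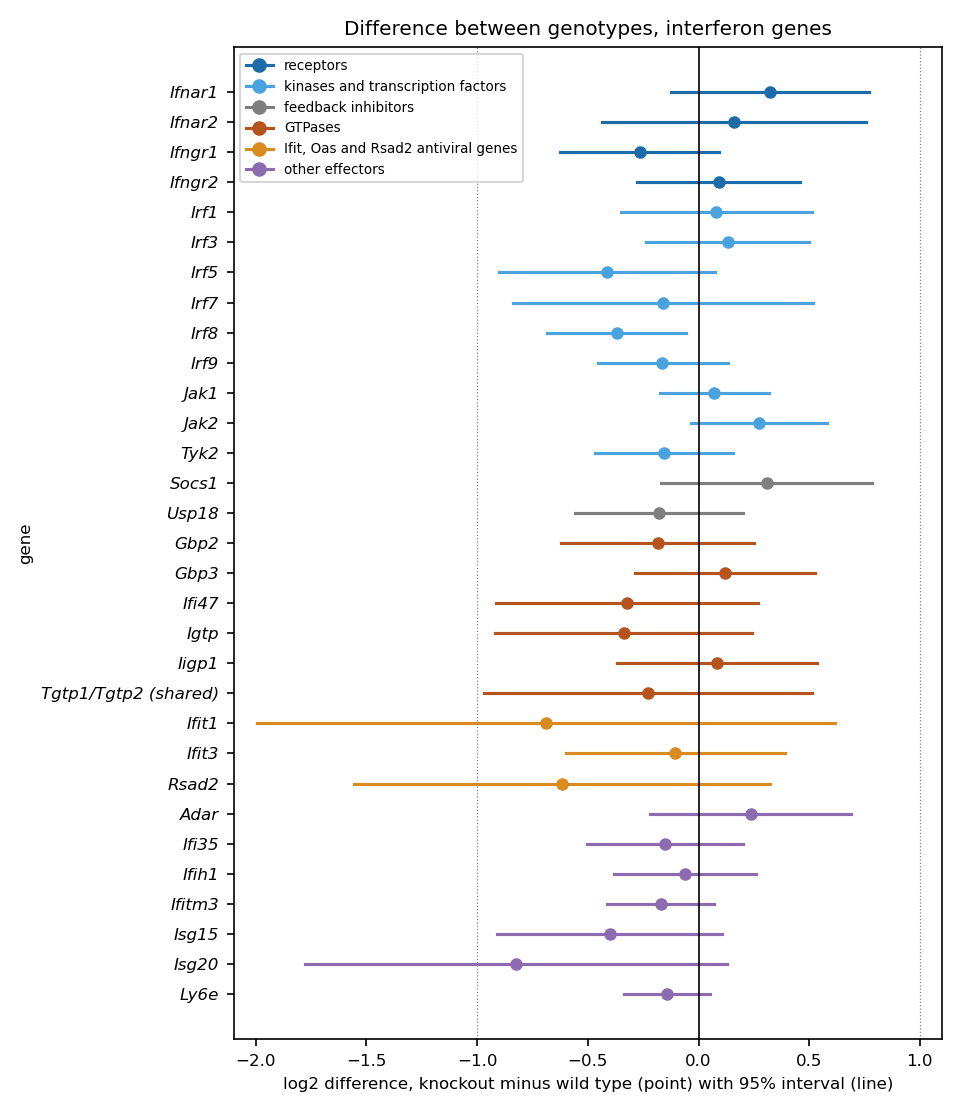
Log2 difference, knockout minus wild type (horizontal axis; point), with its 95% interval from limma (line), for each tested interferon gene by role (vertical axis), dotted lines at a 2-fold change. The interval of Irf8 is the only one clear of 0, and Ifit1, Isg20 and Rsad2 have the widest intervals on the lower side.

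The interferon-inducible GTPases varied more among knockout mice than between the genotypes. Igtp, an immunity-related GTPase that acts on vacuoles of intracellular parasites, had signals of 65.5, 50.9, 121.1, 108.6 and 66.4 in knockout 1 to 5, against 113.1, 119, 78.2 and 90.5 in wild type 1 to 4. Knockout 3 was the highest and knockout 2 the lowest of the 9 mice. For Igtp the log2 difference was -0.34 (-0.92 to 0.24, limma adjusted p = 0.73). Ifi47, of the same family, had 46.1, 33.9, 82.5, 60.6 and 55.9 in knockout mice, against 91, 61.9, 56.3 and 62.8 in wild-type mice. Wild type 1 was the highest, knockout 3 next and knockout 2 the lowest, with a log2 difference of -0.32.

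Gbp2, a guanylate-binding protein induced by interferon gamma, had signals of 183.3, 136.3, 287.2, 226.8 and 186.2 in knockout 1 to 5, against 274.8, 214.4, 204.7 and 212 in wild type 1 to 4. The other 3 wild-type mice lay within a few units of each other, and wild type 1 stood apart from them. The log2 difference was -0.18 (-0.62 to 0.25). Gbp3, its neighbour in the family, spanned 162.7 to 279.1 in knockout skin and 171.6 to 271.6 in wild-type skin, with a log2 difference of 0.12. Its lowest and highest mice were again knockout 2 and knockout 3.

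Iigp1, another immunity-related GTPase, had signals of 173.2, 124.4, 268, 191.1 and 155.9 in knockout 1 to 5, against 142.3, 150.4, 186.3 and 194.2 in wild type 1 to 4. A second probe set had 81.4, 53.2, 137.6, 83.3 and 80.8 in knockout mice, against 75.2, 108.1, 40 and 60.4 in wild-type mice. Both put knockout 3 highest, the log2 differences were 0.08 and 0.32, and the lowest mouse was knockout 2 on the first and wild type 3 on the second. Tgtp1, whose paired GAS and ISRE core are shown above, was read by a probe set shared with its near copy Tgtp2 and is left out of the counts. That probe set had 49.7, 29.7, 109, 85.3 and 66.8 in knockout mice, against 80.2, 89.4, 58.9 and 65.9 in wild-type mice. It had the same extremes, knockout 3 highest and knockout 2 lowest, and a log2 difference of -0.23.

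**Figure D3:**
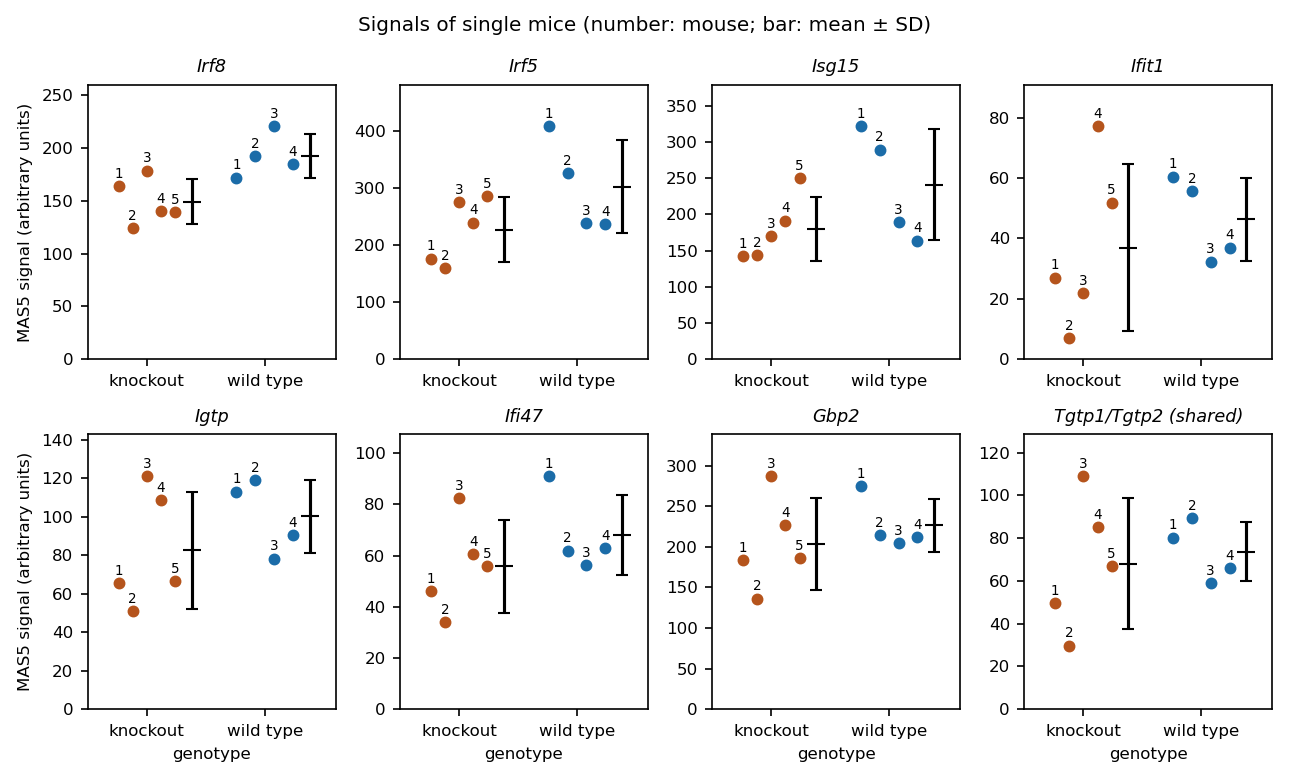
MAS5 signal (vertical axis, arbitrary units, from 0) of single mice for 8 probe sets, knockout left and wild type right (horizontal axis), each point numbered by mouse, with bars for mean ± SD. Knockout 3 is above all wild-type mice for Igtp, Gbp2 and the probe set shared by Tgtp1 and Tgtp2, and knockout 2 is below all wild-type mice in all 8 panels.

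The spread was that of single mice, described here after the values had been seen. Knockout 2 was the lowest of the 9 mice for 5 of 5 GTPases and for 9 of 15 effectors, compared with 10.3% of all tested probe sets. Knockout 3 was the highest for 4 of 5 GTPases, compared with 6.46% of probe sets. The signal of knockout 3 over that of knockout 2 was 2.38 for Igtp, 2.43 for Ifi47, 2.11 for Gbp2, 1.72 for Gbp3 and 2.15 for Iigp1. A ratio above 2 was met by 4 of 5 GTPases and by 142 of 7658 probe sets (1.85%), and the median log2 ratio over all 7658 was 0.021. The signal ratio was 3.67 for the probe set of Tgtp1 and Tgtp2 and 1.76 for Irf1.

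Over all effectors the knockout mice also took different positions. Knockout 2 lay below every wild-type mouse for 12 of 15 effectors, compared with 20.2% of probe sets, and knockout 1 for 10 of 15, compared with 17.6%. Knockout 5 did so for 6 of 15, compared with 19.6%. Knockout 3 did so for 1 of 15, compared with 13.5%, and knockout 4 for 0 of 15, compared with 26.3%. The median centred log2 signal of the effectors was -0.20, -0.47, 0.08, 0.12 and -0.05 in knockout 1 to 5, against 0.38, 0.07, -0.07 and 0.02 in wild type 1 to 4. Wild type 1 stood highest, knockout 1 and knockout 2 lowest, and the groups overlapped.

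Other tissue features differed among the same mice. The median of 15 genes of the growing hair follicle, such as hair keratins, was 1.16, 2.81, -0.76, -1.79 and 2.52 in knockout 1 to 5, against -0.85, -1.35, 0.04 and -0.78 in wild type 1 to 4. Knockout 1, 2 and 5 had the highest follicle values and effector medians below 0, and wild type 3 also had an effector median below 0. With this follicle score as a covariate in limma, the effector median was -0.07, with 10 of 15 effectors lower. High scores occurred only in knockout mice, so this fit cannot fully separate follicle state from genotype. The part of the follicle in the effector values was not tested. The macrophage and dendritic list had medians of -0.20, -0.22, -0.02, -0.02 and 0.01 in knockout mice, against 0.16, 0.17, 0.30 and 0.04 in wild-type mice, and its part in the effector values was not tested. T and NK markers were mostly dim, with 5 of 20 genes tested and a median log2 difference of 0.06. The deposited values also fall into 2 sets by their number of printed decimals, one holding knockout 1, knockout 2, wild type 2, wild type 3 and wild type 4. The effector median was -0.26 within that set. It was also -0.26 within the other, where wild type 1, with the highest effector median of all mice, was the only wild-type mouse. The equal values therefore do not show that the split has no effect.

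**Figure D4:**
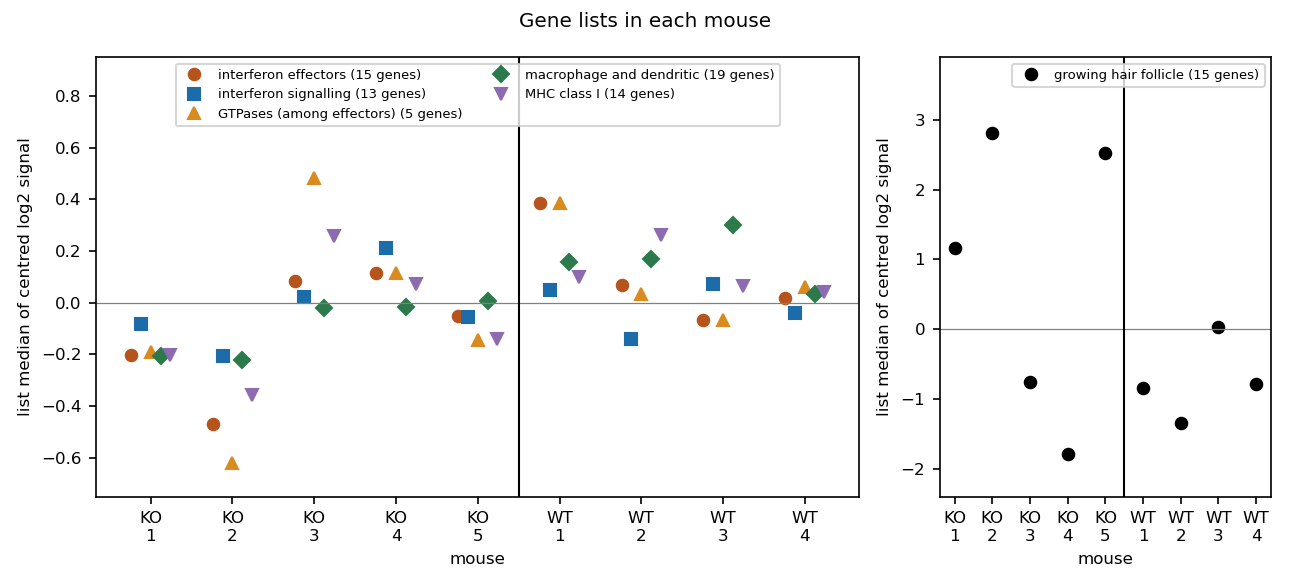
Median of centred log2 signal (vertical axes) of gene lists in each of the 5 knockout (KO) and 4 wild-type (WT) mice (horizontal axes), immune and interferon lists left and the growing hair follicle list right. Knockout 2 has the lowest GTPase median at -0.62 and knockout 3 the highest at 0.48, and the follicle list is high in knockout 1, 2 and 5.

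The antiviral genes Ifit1 and Rsad2 lay near the filter. Ifit1, which binds viral RNA lacking the host cap, had 27, 7, 21.8, 77.1 and 51.9 in knockout 1 to 5, against 60.5, 55.6, 32.3 and 36.9 in wild type 1 to 4. Knockout 4 was the highest and knockout 2 the lowest, and the log2 difference of -0.69 had a wide interval (-1.996 to 0.618, limma adjusted p = 0.767). Rsad2, which encodes viperin, had 45.1, 12.7, 57.7, 49.6 and 29 in knockout mice, against 59.1, 35.5, 54.1 and 67.5 in wild-type mice. Knockout 2 was again lowest, with a log2 difference of -0.62 (-1.56 to 0.32, limma adjusted p = 0.697). Ifit1 reached the filter level in 4 arrays and Rsad2 in 5, so both sit at the edge of what was tested. Without knockout 2 the log2 difference was -0.192 for Ifit1 and -0.258 for Rsad2.

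Ifit3, a partner of Ifit1, was more even among knockout mice. It had 86.8, 72.6, 80.8, 81 and 103.2 in knockout 1 to 5, against 139.5, 100.7, 74 and 64.9 in wild type 1 to 4. The wild-type mice included both the highest and the lowest value, and the log2 difference was -0.10. Ifit2 was below the filter, with 31 ± 21.8 in knockout skin and 31.4 ± 12.5 in wild-type skin.

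Among the other effectors, Isg15, the ubiquitin-like protein attached to other proteins after interferon, had signals of 142.7, 143.4, 169.9, 191.3 and 250.3 in knockout 1 to 5, against 321.6, 289.7, 188.9 and 163.9 in wild type 1 to 4. Wild type 1 and wild type 2 were above all knockout mice, as for Irf5, and the rest overlapped. For Isg15 the log2 difference was -0.40 (-0.91 to 0.11, limma adjusted p = 0.623), and it was -0.244 without wild type 1. Isg20, an antiviral exonuclease, had 14.6, 22.6, 48.5, 73 and 40.4 in knockout mice, against 59.9, 41.7, 69.5 and 78.2 in wild-type mice. Its log2 difference of -0.82 (-1.78 to 0.13, limma adjusted p = 0.578) came from a probe set that reached the filter in 4 arrays, and it was -0.518 without knockout 1. Those arrays were knockout 4 and wild type 1, 3 and 4. Isg20 thus entered the test mainly through the group where it was higher, and it is among the 12 effectors counted as lower.

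Ly6e and Ifitm3 had the smallest standard errors of all members, 0.088 and 0.111 on the log2 scale. Ly6e, a membrane protein of the Ly6 family, had signals of 6116.5, 6009, 6662.3, 6623.8 and 6418.3 in knockout 1 to 5, against 7395.5, 7784.8, 6699.7 and 6319.7 in wild type 1 to 4. Wild type 1, 2 and 3 were above all knockout mice and wild type 4 lay among them, with a log2 difference of -0.14 (-0.34 to 0.05, limma adjusted p = 0.65). A second Ly6e probe set was below the filter, with 16.1 ± 3.25 in knockout skin and 32.6 ± 11.5 in wild-type skin, and was not tested. Ifitm3, which hinders virus entry, had 2549.5, 2461.4, 2977.6, 2906.2 and 3119.1 in knockout mice, against 3613.2, 3210, 2976.5 and 2826.3 in wild-type mice. Again wild type 1 and wild type 2 were highest, and the log2 difference was -0.17 (-0.41 to 0.07).

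The remaining tested effectors had overlapping groups. Adar, which edits double-stranded RNA, averaged 119 ± 20.7 in knockout skin and 102 ± 26.5 in wild-type skin, and its log2 difference was 0.23. Ifi35 averaged 180 ± 26.1 in knockout skin and 202 ± 38.3 in wild-type skin. Ifih1, the cytosolic RNA sensor MDA5, averaged 119 ± 17.2 in knockout skin and 123 ± 8.52 in wild-type skin, with a log2 difference of -0.06. Taken by role, 3 of 5 GTPases, 3 of 3 Ifit and Rsad2 genes and 6 of 7 other effectors had lower values in knockout skin, with medians of -0.18, -0.62 and -0.15.

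Of the members that were not tested, 4 effectors were measured below the filter. Besides Ifit2 these were the GTPases Mx1, Mx2 and Irgm1. Mx1 averaged 17.2 ± 5.55 in knockout skin and 24.6 ± 11.2 in wild-type skin, and Mx2 averaged 24.8 ± 6.48 in knockout skin and 36.8 ± 8.32 in wild-type skin. Irgm1 averaged 42.1 ± 12.2 in knockout skin and 35.2 ± 4.51 in wild-type skin. MAS5 gives such low signals a large relative error, so no direction is drawn from them. No probe set was annotated here to Stat2, Irf2, Oas1a, Oasl2, Ifi44, Bst2 or Xaf1, and they were not analysed.

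The interferons themselves were dim. Of 6 interferon genes looked for, 4 had probe sets and all lay below the filter. Ifng, the gene of interferon gamma, had 1.84 ± 0.55 in knockout skin and 4.17 ± 3.29 in wild-type skin, and Ifnb1, the gene of interferon beta, had 17.5 ± 13.5 in knockout skin and 17 ± 15.6 in wild-type skin. Ifna2 had 18.9 ± 2.21 in knockout skin and 18.3 ± 1.14 in wild-type skin. Ifna4 had 32.2 ± 10 in knockout skin and 21.7 ± 9.09 in wild-type skin on 1 probe set, and 20.4 ± 9.02 in knockout skin and 14.1 ± 13.1 in wild-type skin on the other. The groups overlapped for all 4 genes, and at these signals no difference in the ligands could be read.

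A wider list of 76 other interferon pathway genes was read in the same way. Of 49 on the array, 32 were tested, 22 with lower and 10 with higher values in knockout skin and a median log2 difference of -0.09. None passed in limma at an adjusted p of 0.05, and at an unadjusted p of 0.05 there was 1 lower and 1 higher, compared with 3.96% and 5.45% of probe sets. B2m, the light chain of MHC class I, had signals of 3628, 3243.9, 4202.9, 4404.8 and 3475.3 in knockout 1 to 5, against 4946.1, 5179, 4500.5 and 4592.6 in wild type 1 to 4. All knockout mice were below all wild-type mice, as for 106 of 7658 probe sets (1.38%), with a log2 difference of -0.35 (limma adjusted p = 0.399). Tbk1, a kinase that activates Irf3, had 223.9, 190.1, 211.5, 189.2 and 214.6 in knockout mice, against 169, 123.9, 156.3 and 185.3 in wild-type mice. All knockout mice were above all wild-type mice, as for 140 of 7658 probe sets (1.83%), and the log2 difference was 0.39 (adjusted p = 0.443 in limma). Those next by p overlapped between the groups. They were Casp4 (log2 difference -0.35), Ifi30 (-0.46), the transporter subunits Tap2 (-0.35) and Tap1 (-0.26), Ifi27 (0.26) and the loading factor Tapbp (-0.27).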

How the data were processed

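Total RNA of whole skin from 9 mice was labelled and hybridised to Affymetrix MG-U74 arrays, and, per the labels, the authors made the signals in MAS5, Affymetrix's Microarray Suite. The deposited values are natural log signals. Their exponentials are whole multiples of 0.1 in 100% of cases (tolerance 0.02), and the 2% trimmed mean is 200.1 on every array, so arrays had been scaled before the log. Image files and detection calls were not used here, so whether the dim probe sets were detected is not known. The number of mice limits the precision.

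Values were converted to log2 and not normalised again. Control probe sets (66 of 12488) were left out and 1 value is missing, in knockout 1. The brightness filter asked for a signal at or above the 40th percentile (43.4 to 53.3, depending on the array) on 4 or more of the 9 arrays, and 7658 probe sets passed. Names come from the platform annotation, and 10817 of 10833 probe sets with 1 gene matched the RefSeq gene table of GRCm38.p6. A gene was represented by its brightest kept probe set. Differences, knockout minus wild type, were tested in limma 3.58.1 (R 4.3.3, lmFit and eBayes with trend). Tests were two-sided and p-values were adjusted by Benjamini-Hochberg across these 7658, and the procedure was tested on simulated data. Cd1d1 also had an exact permutation test over all arrangements of the mice (smallest p 0.00794). Lists have counts and medians only.

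The members and lists were chosen with earlier results of these data known. All-mouse signals were to be printed for the 3 members of each role with the smallest p, the 4 brightest, the 4 of widest range and any whose groups do not overlap. Irf1, Gbp3, Iigp1 and the shared Tgtp probe set were added after their values were seen, as were the remarks on single mice. Alternatives were 2 other filters, pseudocounts of 16 and 64, array weights, no variance trend, median centring, quantile normalisation, a median over the probe sets of each gene, the replicate number or the printed decimals as a block, each set of decimals alone, a hair follicle covariate and leaving out each mouse. Same-numbered mice did not deviate together: the correlations of their deviations were 0.106, -0.012, -0.046 and 0.019 for numbers 1 to 4. Promoter windows are from RefSeq, GRCm38.p6.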

Additional observations from a re-analysis of the deposited data

Results flagged for a closer look

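Gbp2, the guanylate-binding GTPase, stood out in 1 wild-type mouse. Its signal was 274.8 in wild type 1 and 204.7 to 214.4 in the other 3 wild-type mice. On the log scale, the gap to the nearest mouse made up 0.843 of the range of the group, above Dixon's critical value of 0.829 for 4 samples. It was 1 of 66 groups examined over 33 probe sets, and chance alone marks about 1 in 20 such groups.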

How the results depend on the processing

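No member passed an adjusted p of 0.05 in limma under any of the 22 alternatives, in which the smallest adjusted p of a member lay between 0.209 and 0.998 and 0 to 6 members had an unadjusted p under 0.05. The effector median, -0.17, stayed below 0 under all of them (-0.26 to -0.07), between -0.23 and -0.10 without each mouse in turn, with 11 to 13 of 15 effectors lower. The number of probe sets past the threshold, 4, was 7 with a pseudocount of 64, 9 with array weights, 10 within the 7-decimal arrays, 0 within the 9-decimal arrays and 4 to 8 without each mouse in turn, 7 without knockout 2, 7 without knockout 3 and 8 without knockout 4. With the replicate block it was 1, the effector median -0.18 and the signalling median 0.05, and same-numbered mice share only a number. The signalling median, 0.07, was -0.16 with the 60th percentile filter, -0.061 with array weights, -0.078 with the decimals as a block, -0.17 within the 7-decimal arrays and -0.074 to 0.102 without each mouse in turn. The effector median beside it was -0.15 with the 60th percentile filter, so the 2 classes did not differ there. Within the 7-decimal arrays 10 of 13 signalling genes were lower, beside 12 of 15 effectors (median -0.26). The median of the other pathway genes, -0.09, was -0.26 within the 7-decimal arrays, and above 0 within the 9-decimal arrays (0.038, 14 of 32 lower) and with the follicle covariate (0.06, 15 of 32 lower). The 9-decimal arrays include only 1 wild-type mouse, wild type 1. Single-gene values were read under the alternatives for 21 of the 30 tested members, those chosen by the rule for printing all-mouse signals. Signs changed for 7 of these 21. Ifnar2 was -0.061 with array weights, -0.107 within the 9-decimal arrays and -0.074 to 0.342 without each mouse. Ifit3 was 0.016 within the 7-decimal arrays and -0.27 to 0.10 without each mouse. Irf7 was 0.095 with the follicle covariate and -0.367 to 0.043 without each mouse. Igtp (0.049) and Gbp2 (0.054) turned with the follicle covariate, Jak1 within the 7-decimal arrays (-0.012) and Usp18 within the 9-decimal arrays (0.10). The cause was not tested. The other 440 of 452 values of named members kept their direction and did not pass, but sizes moved: 110 of 452 differed from the reported value by over 1.5 times or turned, 38 of them on leaving out 1 mouse. Pseudocount 64 brought Ifit1 to -0.162 and Isg20 to -0.302, and no order among the most negative members held throughout. Low signals limit Ifit1, Isg20 and Rsad2, and the 4 members below the filter.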

Other observations

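Some genes of peptide transport and the immunoproteasome, which interferon gamma also induces, had the same 2 mice at their extremes. The mice and genes were picked after the values had been seen. Tap1, a subunit of the peptide transporter, had signals of 525.3, 493, 864.4, 679 and 609.5 in knockout 1 to 5, against 687.5, 812.2, 804.6 and 692.6 in wild type 1 to 4. Psmb9, an immunoproteasome subunit, had 272.2, 241.7, 450.5, 419.2 and 304.4 in knockout mice, against 358.8, 440, 316.7 and 273.9 in wild-type mice. Knockout 3 was the highest and knockout 2 the lowest of the 9 mice for both, and also for Psmb8. Other such genes differed: Tap2 was lowest in knockout 1, Tapbp was highest in knockout 4 and lowest in knockout 1, and Psmb10 was highest in wild type 2 and lowest in knockout 4. Of 14 tested genes of an MHC class I list, 6 had knockout 3 highest and 8 had knockout 2 lowest, compared with 6.46% and 10.3% of all tested probe sets. The log2 difference between the genotypes was -0.26 for Tap1 and -0.06 for Psmb9, within the spread between mice.

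Irgm2, an immunity-related GTPase outside the member list whose promoter holds the joint GAS and ISRE pattern, had signals of 225.7, 199.9, 298, 316.8 and 212.9 in knockout 1 to 5, against 242.2, 206.8, 299 and 264.2 in wild type 1 to 4. Knockout 2 was again the lowest mouse, knockout 4 was the highest, and the log2 difference was -0.03. Over the 32 other pathway genes, knockout 2 was the lowest mouse for 11 and knockout 1 for 8, compared with 10.3% and 7.39% of all tested probe sets.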
